A study of Mus musculus with 27 samples.

Results

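Lung fibroblasts in primary culture, from wild-type C57BL/6 mice, that had been kept in the vehicle DMSO for 15 d, freed of it and cultured for 20 d more were set against the same kind of cells kept in DMSO for the whole 35 d. Both groups had the same nominal time in culture, so the comparison asks what taking the vehicle away did to the transcriptome. It used 6 of the 27 RNA-seq libraries of the series, chosen by their titles: S7_705, S8_715 and S9_716 for withdrawal, and S13_705, S14_715 and S15_716 for continued DMSO. Neither group received KU60019, the inhibitor of the DNA damage kinase ATM that the series was made to study, nor X-rays. All cells grew in DMEM with 15% fetal bovine serum under 3% O2. The labels give 3 uM as the final concentration of "either KU60019 or DMSO", and they do not state how much solvent the vehicle cells received. Nor do they say whether libraries with the same ending of the title, such as S7_705 and S13_705, came from 1 animal or culture, so the p-values may reflect no more than the technical spread of these samples.

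Dimethyl sulfoxide is the solvent in which hydrophobic drugs are usually added to cultured cells, and vehicle cells serve as the baseline of a drug study. Lung fibroblasts make the collagens and elastic fibres of the airspace wall. In stiff culture and under TGF-beta they can take on a myofibroblast state, in which actin-binding and smooth muscle proteins join the collagen programme. Fibroblasts held in culture for long can also stop dividing, and such cells secrete cytokines and chemokines, a programme known as the senescence-associated secretory phenotype.

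The 6 libraries held 26704586 (S13_705) to 50859493 (S15_716) counts. Ribosomal RNA genes took 0.844% of the counts of S7_705 and 0.0252% to 0.0865% of those of the other 5. Log2 levels were also taken relative to each gene's mean over the 27 libraries. Across genes, these relative levels rose less with gene length in S13_705 (Spearman's rho 0.0896) than in the other 5 libraries (0.24 to 0.34). The 12 fibroblast markers, Col1a1, Col1a2, Pdgfra and Pdgfrb among them, were all measured and summed to 42824 to 48032 CPM (counts scaled to library size and the TMM factor) after withdrawal and 28976 to 36655 CPM in continued DMSO. Some defining markers of leukocytes and epithelium were at or near 0. The leukocyte gene Ptprc had 1 count in all after withdrawal and 0 in continued DMSO, the macrophage genes Adgre1 and C1qc had 0 in both groups, and the epithelial genes Epcam and Cdh1 had 1 count each over the 6 libraries. Other members of these marker lists were detected, led by Cd14 for macrophages, with 1867 counts in all after withdrawal and 3131 in continued DMSO, and Krt19 for epithelium, with 266 after withdrawal and 153 in continued DMSO. In bulk RNA, fewer cells of a type and less RNA per cell cannot be told apart.

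Few genes separated the groups, and nearly all of those were higher after withdrawal. Of 18684 genes tested with edgeR's quasi-likelihood test, 30 (0.161%) passed an adjusted p of 0.05. Of these, 27 rose (0.145% of genes tested) and 3 fell (0.0161%), and 23 changed at least 2-fold (0.123%). The rises include genes of the cell surface and genes known from muscle, and the falls were the chemokine gene Cxcl5, the peptidase gene Mme and the receptor gene Il17ra. At an unadjusted p under 0.05 there were 1198 genes (6.41%), 791 higher (4.23%) and 407 lower (2.18%) after withdrawal, and 49.8% of genes had a log2 fold change above 0. The groups' libraries did not overlap for 4135 genes (22.1%), 2124 above (11.4%) and 2011 below (10.8%). The median log2 fold change over all genes was -0.00047.

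The distances between whole transcriptomes overlapped between and within the groups, and the widest of them came from 1 library. The root mean square log2 difference between 2 libraries over all genes tested was 0.416 to 0.609 for the 9 pairs of a withdrawal and a continued library (median 0.506). It was 0.407 to 0.477 among the 3 withdrawal libraries (median 0.412) and 0.386 to 0.559 among the 3 continued libraries (median 0.538). S13_705 lay 0.538 and 0.559 from the other continued libraries and 0.582 to 0.609 from the withdrawal libraries. Without S13_705, pairs between the groups lay at 0.416 to 0.524, and S14_715 and S15_716 were 0.386 apart. By the median over 9 pairs both groups were farther from cells harvested at 15 d in DMSO, at 0.692 for withdrawal and 0.675 for continued DMSO. The 15 d libraries themselves lay 0.496 to 0.788 apart (median 0.786). Neither median was above that within the 15 d group, but both 15 d pairs with S2_715 were wide (0.786 and 0.788). S1_705 and S3_716 lay 0.496 apart. Every pair of either with a withdrawal or continued library was farther, at 0.612 to 0.754 for withdrawal and 0.519 to 0.712 for continued DMSO. Cells that lost DMSO only after 35 d and were harvested 20 d later lay at 1.19 to 1.8 from the withdrawal libraries (median 1.49). The standard error of a log2 fold change was 0.246 at the median gene, with 0.126 and 0.620 at the 10th and 90th percentiles. The 95% interval lay within a 2-fold change either way for 12836 genes (68.7%), and for the rest a 2-fold difference was not excluded at this depth and number of libraries.

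**Figure D1:**
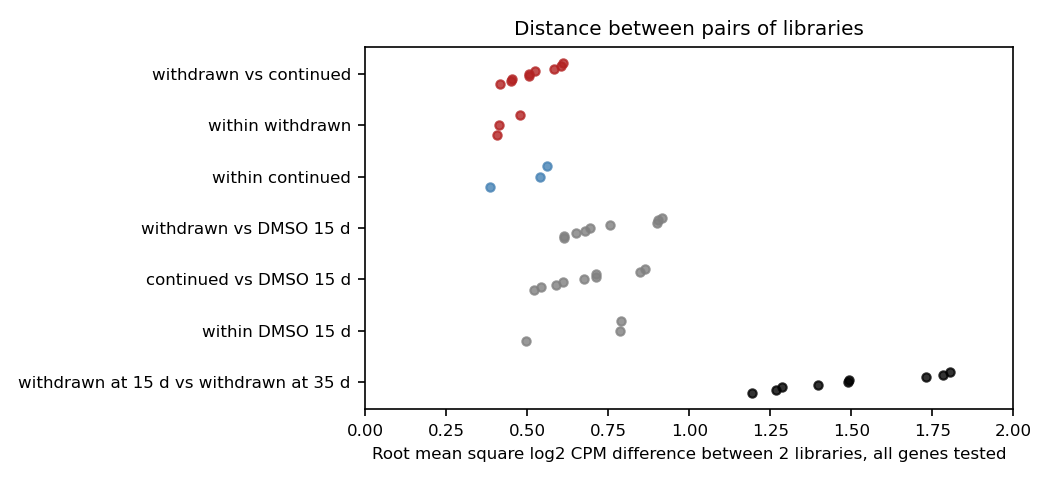
Root mean square log2 CPM difference between pairs of libraries over all genes tested, 1 point per pair, with a CPM prior of 2. Pairs of a withdrawal and a continued library spread over 0.416 to 0.609, which overlaps the pairs within each group, while pairs of a withdrawal library and one withdrawn at 35 d lie at 1.19 or more.

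**Figure D2:**
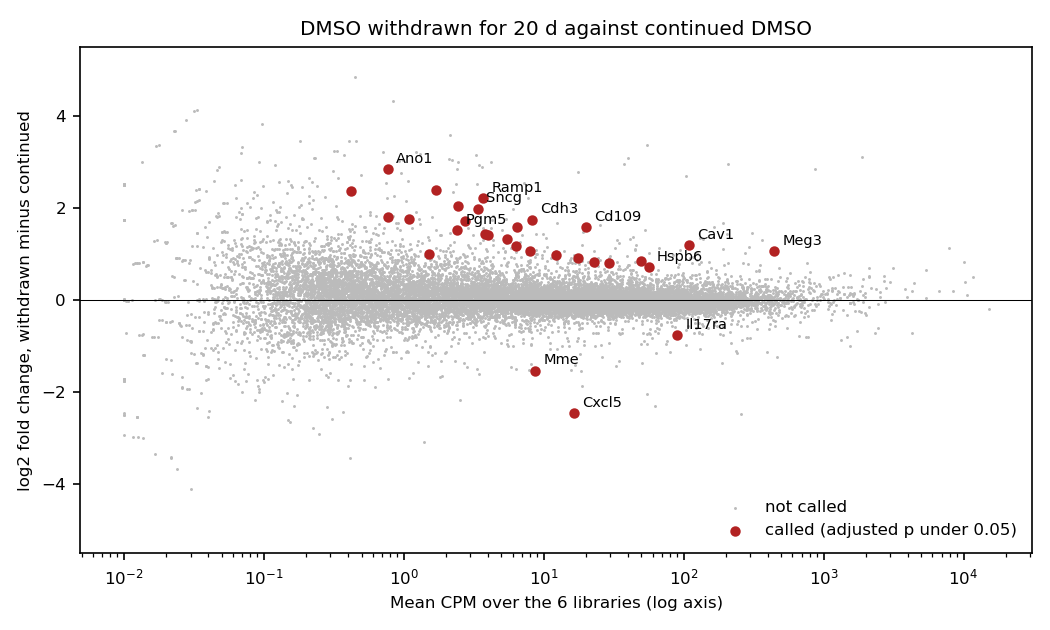
Log2 fold change (withdrawn minus continued DMSO) of each gene tested against its mean CPM over the 6 libraries on a log axis; the 49 genes under 0.01 CPM are drawn at 0.01. The 30 called genes (red, 12 of them named) lie at absolute log2 fold changes of 0.72 to 2.84, and 27 of them lie above 0.

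The 3 genes that fell encode a chemokine, a membrane peptidase and a cytokine receptor. Cxcl5 encodes a chemokine that draws neutrophils (ENSMUSG00000029371, chromosome 5, 90759360 to 90761624, plus strand, GRCm38 as for all positions). It had 5.76, 5.39 and 4.22 CPM after withdrawal, against 24.8, 26.2 and 33 CPM in continued DMSO. The 2 groups were far apart, and the lowest continued library stood well above every withdrawal library. Its log2 fold change was -2.45 ± 0.46 (edgeR adjusted p = 0.0233). At 15 d in DMSO its level was 43.8 ± 22.6 CPM (SD, n = 3), and in cells withdrawn at 35 d it was 21.2 ± 6.78 CPM.

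Mme encodes neprilysin, a membrane peptidase that cleaves signalling peptides (ENSMUSG00000027820, chromosome 3, 63241537 to 63386030, plus strand). It had 5.1, 4.56 and 3.83 CPM after withdrawal, against 8.68, 14 and 16.2 CPM in continued DMSO. The withdrawal libraries lay close together and all below the continued ones, which spread more widely. Its log2 fold change was -1.53 ± 0.27, adjusted p = 0.014. Its level was 33.9 ± 13.1 CPM at 15 d in DMSO and 2.06 ± 0.447 CPM in cells withdrawn at 35 d, so the 15 d level was above both 35 d groups. Il17ra encodes the receptor subunit through which interleukin 17 acts (ENSMUSG00000002897, chromosome 6, 120463247 to 120487559, plus strand). It had 70.6, 71.8 and 58.7 CPM after withdrawal, against 99.8, 111 and 128 CPM in continued DMSO, with no overlap of the libraries. Its log2 fold change was -0.75 ± 0.15, adjusted p = 0.0466.

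With 1 library left out, Cxcl5 and Il17ra passed in none of the 6 fits, with adjusted p of 0.0642 (without S13_705) to 0.238 (without S9_716) for Cxcl5, and of 0.0758 (without S13_705) to 0.387 (without S9_716) for Il17ra. Mme still passed without S13_705 (0.0128) or S7_705 (0.0431). It did not pass without S14_715 (0.0787), S8_715 (0.0877), S15_716 (0.168) or S9_716 (0.178).

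**Figure D3:**
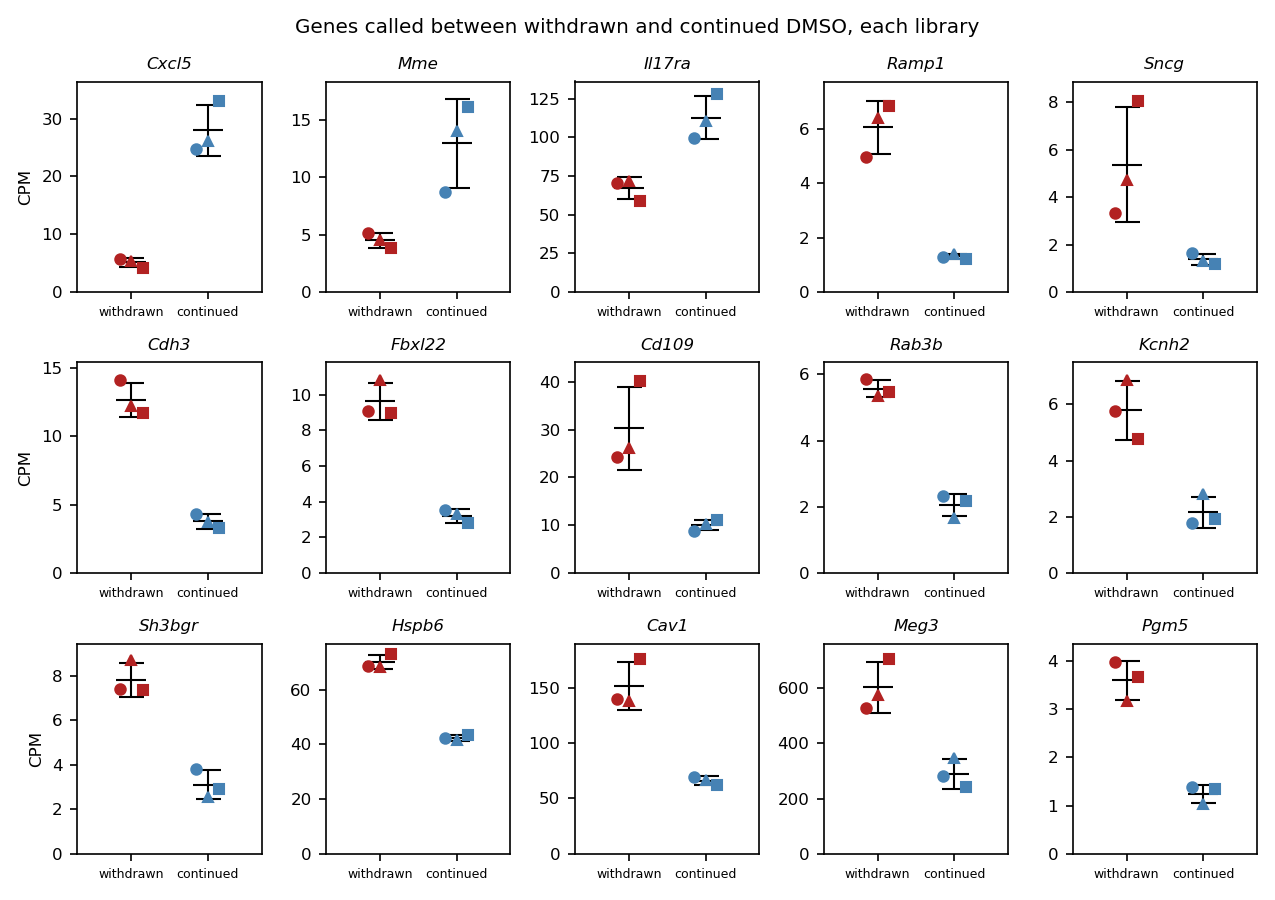
CPM of 15 called genes in each library after withdrawal (red, left) and in continued DMSO (blue, right); circles are S7_705 and S13_705, triangles S8_715 and S14_715, squares S9_716 and S15_716, and bars give mean ± SD (n = 3). The groups do not overlap for any of the 15; Cxcl5, Mme and Il17ra are lower after withdrawal and the other 12 are higher.

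The 8 largest rises among genes of at least 5 CPM after withdrawal were Ramp1, Sncg, Cdh3, Fbxl22, Cd109, Rab3b, Kcnh2 and Sh3bgr. Ramp1 encodes a partner protein that turns the calcitonin receptor-like receptor into the receptor of the neuropeptide CGRP (ENSMUSG00000034353, chromosome 1, 91179822 to 91225196, plus strand). It had 4.98, 6.41 and 6.85 CPM after withdrawal, against 1.3, 1.41 and 1.2 CPM in continued DMSO. The continued libraries were nearly alike and the withdrawal libraries all stood far above them. Its log2 fold change was 2.22 ± 0.41, adjusted p = 0.023. Its level at 15 d in DMSO was 0.671 ± 0.12 CPM.

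Sncg encodes gamma-synuclein (ENSMUSG00000023064, chromosome 14, 34370274 to 34374789, minus strand) and had 3.34, 4.74 and 8.06 CPM after withdrawal, against 1.64, 1.29 and 1.18 CPM in continued DMSO. S9_716 was the highest of the withdrawal libraries, which spread over more than the whole continued group, yet all lay above it. The log2 fold change was 1.99 ± 0.38, adjusted p = 0.030. Cdh3, which encodes the adhesion protein P-cadherin (ENSMUSG00000061048, chromosome 8, 106510891 to 106557297, plus strand), had 14.1, 12.2 and 11.7 CPM after withdrawal, against 4.32, 3.71 and 3.28 CPM in continued DMSO. Here the withdrawal libraries were close together. The log2 fold change was 1.75 ± 0.29, adjusted p = 0.0113. Cd109 encodes a lipid-anchored surface protein that binds TGF-beta (ENSMUSG00000046186, chromosome 9, 78615546 to 78716253, plus strand) and had 24.3, 26.2 and 40.3 CPM after withdrawal, against 8.8, 10.3 and 11 CPM in continued DMSO. S9_716 was again the highest, and the 2 groups did not overlap. The log2 fold change was 1.59 ± 0.28, adjusted p = 0.014.

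Fbxl22 encodes an F-box protein known from the sarcomere of heart muscle (ENSMUSG00000050503, chromosome 9, 66508459 to 66514593, minus strand) and had 9.1, 10.8 and 8.96 CPM after withdrawal, against 3.54, 3.3 and 2.78 CPM in continued DMSO (log2 fold change 1.59 ± 0.28, adjusted p = 0.014). Rab3b, a small GTPase gene of regulated secretion (ENSMUSG00000003411, chromosome 4, 108879063 to 108943324, plus strand), had 5.86, 5.36 and 5.48 CPM after withdrawal, against 2.31, 1.67 and 2.17 CPM in continued DMSO (log2 fold change 1.44 ± 0.20, adjusted p = 0.00371). Kcnh2 encodes a voltage-gated potassium channel of heart and smooth muscle (ENSMUSG00000038319, chromosome 5, 24319589 to 24351604, minus strand). It had 5.76, 6.86 and 4.76 CPM after withdrawal, against 1.79, 2.8 and 1.91 CPM in continued DMSO (log2 fold change 1.42 ± 0.27, adjusted p = 0.0246). Sh3bgr (ENSMUSG00000040666, chromosome 16, 96200450 to 96228935, plus strand) had 7.4, 8.71 and 7.39 CPM after withdrawal, against 3.84, 2.58 and 2.9 CPM in continued DMSO (log2 fold change 1.34 ± 0.23, adjusted p = 0.0113). In all 4 genes the lowest withdrawal library was well above the highest continued one.

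These 8 calls depended on single libraries. Without S14_715 none of the 8 passed, with adjusted p from 0.0536 (Rab3b and Kcnh2) to 0.172 (Sncg). Rab3b passed without any other single library (0.0128 to 0.0314). Cdh3 was lost also without S15_716 (0.134), and Sh3bgr also without S15_716 (0.134) and S8_715 (0.0790). Cd109 was kept without S7_705 (0.0217) or S8_715 (0.0495) and lost without S13_705 (0.124), S15_716 (0.134) or S9_716 (0.178). Ramp1, Sncg and Fbxl22 were kept only without S7_705 (0.0353, 0.0217 and 0.0353), and lost without each other library, with adjusted p up to 0.205, 0.267 and 0.172. Kcnh2 was kept in none of the 6 fits (0.0536 to 0.218).

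The other rises described were grouped by known role after their values had been seen, with no test of the grouping. Several are known from muscle cells. Mylk2 encodes the myosin light chain kinase of skeletal muscle and had 0.567, 0.697 and 0.884 CPM after withdrawal, against 0.0373, 0.126 and 0.21 CPM in continued DMSO (log2 fold change 2.37 ± 0.41, adjusted p = 0.014). Dusp27, a phosphatase-like gene of striated muscle, had 2.36, 3.06 and 3.17 CPM after withdrawal, against 0.559, 0.628 and 0.458 CPM in continued DMSO (2.39 ± 0.35, adjusted p = 0.00394). Both were low, and both groups stayed apart. Hspb6, the small heat shock protein of muscle, had 68.8, 68.3 and 73 CPM after withdrawal, against 42.2, 41.5 and 43.5 CPM in continued DMSO (0.72 ± 0.11, adjusted p = 0.00425), with little spread in either group. Mrvi1 encodes a substrate of the cGMP kinase at the calcium store of smooth muscle and averaged 64.1 ± 3.07 CPM after withdrawal and 35.5 ± 3.69 CPM in continued DMSO (0.85 ± 0.17, adjusted p = 0.0417). Pgm5 encodes aciculin, a protein of muscle cell junctions, and had the lowest adjusted p of all genes tested. It had 3.97, 3.16 and 3.66 CPM after withdrawal, against 1.38, 1.04 and 1.33 CPM in continued DMSO (1.52 ± 0.20, adjusted p = 0.00239).

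Other rises encode proteins of the plasma membrane and of ion transport. Cav1 encodes the coat protein of caveolae, the small pits of the cell membrane, and had 139, 138 and 176 CPM after withdrawal, against 69.6, 66.9 and 61.8 CPM in continued DMSO (1.20 ± 0.25, adjusted p = 0.0466). All 3 withdrawal libraries stood far above the continued ones, but its call was lost without each of the 6 libraries in turn (adjusted p 0.0934 to 0.285). Ano1, the calcium-activated chloride channel gene of smooth muscle and pacemaker cells, averaged 1.35 ± 0.742 CPM after withdrawal and 0.183 ± 0.104 CPM in continued DMSO and had the largest fold change of the 30 (2.84 ± 0.53, adjusted p = 0.0233). Its call was kept without S7_705 (0.0180) and lost without each of the other 5 libraries (0.0691 to 0.238), and limma on log2(TPM + 1) gave 0.52 (adjusted p = 0.626). Trpv2, a cation channel gene, averaged 16.3 ± 0.529 CPM after withdrawal and 8.31 ± 0.638 CPM in continued DMSO (0.97 ± 0.17, adjusted p = 0.0136). P2ry6 encodes a receptor for extracellular UDP and averaged 23.1 ± 3.89 CPM after withdrawal and 12.1 ± 1.52 CPM in continued DMSO (0.93 ± 0.16, adjusted p = 0.014). Ehd4, of endosome recycling, averaged 29.1 ± 0.876 CPM after withdrawal and 16.3 ± 0.955 CPM in continued DMSO (0.83 ± 0.14, adjusted p = 0.0113).

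Among regulators and enzymes, the imprinted non-coding RNA Meg3 (ENSMUSG00000021268, chromosome 12, 109541001 to 109571726, plus strand) had 527, 576 and 704 CPM after withdrawal, against 281, 345 and 240.1 CPM in continued DMSO (1.06 ± 0.21, adjusted p = 0.0312). At 15 d in DMSO it was 133 ± 12.6 CPM, below both 35 d groups. Pycr1, the last enzyme of proline synthesis, averaged 37.4 ± 2.95 CPM after withdrawal and 21.3 ± 1.46 CPM in continued DMSO (0.82 ± 0.13, adjusted p = 0.0113). Hdac9, a class II histone deacetylase gene, averaged 3.91 ± 0.423 CPM after withdrawal and 0.948 ± 0.201 CPM in continued DMSO (2.05 ± 0.40, adjusted p = 0.0307), and Rbfox1, a splicing factor gene, averaged 2.03 ± 0.128 CPM after withdrawal and 1.01 ± 0.156 CPM in continued DMSO (1.00 ± 0.21, adjusted p = 0.0466). Further rises were those of Wfdc1 (1.80 ± 0.26, adjusted p = 0.00371), Cyb5r2 (1.76 ± 0.34, adjusted p = 0.0307), Cgref1 (1.06 ± 0.18, adjusted p = 0.0136) and the antisense transcript E030013I19Rik (1.73 ± 0.34, adjusted p = 0.0355). Fbxl22, Rab3b, Meg3, Hspb6, Cyb5r2, Mrvi1 and E030013I19Rik share exon sequence with a gene on the other strand (Itga8 for E030013I19Rik). The sources used here do not give the strand setting of the counting, so reads of such partners cannot be told apart.

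Over all 30 calls, the number kept was 22 without S7_705, 11 without S13_705, 9 without S8_715, 7 without S9_716, 5 without S15_716 and 0 without S14_715. In the last case the adjusted p of the 30 genes lay between 0.0536 and 0.210, with 1107 genes still at an unadjusted p under 0.05. Pgm5, Rab3b, Wfdc1 and Hspb6 were kept without each of the 5 other libraries. In none of the 6 fits were 8 genes kept, Cav1, Mrvi1, Hdac9 and Rbfox1 among them. Without S7_705 and S13_705 together, a fit added after the data were seen because they stood apart in ribosomal RNA or gene length trend, 8 genes passed, 7 of them among the 30. DESeq2 called 162 genes (120 higher, 42 lower), and edgeR on the 6 libraries alone called 252 (181 higher, 71 lower). All 30 were among DESeq2's calls, and 27 were among the 252. In the gene groups, a call by edgeR is one of the fit over all 27 libraries unless the 6 libraries alone are named. Beside the counts of each group stand these backgrounds over all genes. At an unadjusted p under 0.05, 4.23% were higher and 2.18% lower. DESeq2's calls were out of 18684 genes, and those of the 6 libraries alone out of 16756.

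The contractile genes were higher after withdrawal as a group, although none of them passed over all genes. All 17 measured members of a list of actin, myosin and smooth muscle genes had a positive log2 fold change, with a median of 0.69 against -0.00047 over all genes. The groups' libraries did not overlap for 16 of the 17, against 11.4% of all genes above without overlap. edgeR called 0 of them, 13 were higher at an unadjusted p under 0.05 (against 4.23% of all genes), and DESeq2 called 3 (Myh11, Smtn and Lmod1). edgeR on the 6 libraries alone called 7 of the 17, all higher (against 181 higher of 16756 genes). With the replicate number as a block it called 1, which was higher (against 40 higher of 18684 genes). The summed level of the list was 18262, 19772 and 16773 CPM after withdrawal, against 12816, 12631 and 11269 CPM in continued DMSO and 8935 to 11575 CPM at 15 d. The 3 withdrawal libraries were thus all above the other 6. Across the 17 alternatives the median stayed between 0.58 (without S15_716) and 0.76 (without S7_705 and S13_705), with all 17 members positive in each.

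Acta2, the smooth muscle actin that marks myofibroblasts, had 3790, 4352 and 3509 CPM after withdrawal, against 2706, 2420 and 2066 CPM in continued DMSO (log2 fold change 0.70 ± 0.25, adjusted p = 0.457). Myh11, the smooth muscle myosin heavy chain, had 504, 579 and 482 CPM after withdrawal, against 171, 255 and 203 CPM in continued DMSO (1.32 ± 0.29, adjusted p = 0.0789). Every withdrawal library was above every continued one for both genes. Smtn (smoothelin), an actin-binding protein, averaged 145 ± 4.81 CPM after withdrawal and 77.5 ± 10.2 CPM in continued DMSO (0.91 ± 0.20, adjusted p = 0.0789). Lmod1 (leiomodin), which starts actin filaments in smooth muscle, averaged 162 ± 14.7 CPM after withdrawal and 88.9 ± 6.83 CPM in continued DMSO (0.87 ± 0.23, adjusted p = 0.169). Tpm1, a tropomyosin, averaged 2475 ± 236 CPM after withdrawal and 1722 ± 207 CPM in continued DMSO (0.52 ± 0.16, adjusted p = 0.265). DESeq2 put Myh11 at an adjusted p of 0.00356, Smtn at 0.0131 and Lmod1 at 0.0337, and Acta2 at 0.273. Smtn had 0.0386 in edgeR with library size alone as the scaling and 0.0367 with no filter on low counts.

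To show what stands before such genes, the first windows of Fbxl22, which passed the test, and Acta2, which did not, are printed from RefSeq (GRCm38.p6), from 250 bases before to 50 after the annotated start.
Fbxl22 (chr9:66514544-66514843, minus strand): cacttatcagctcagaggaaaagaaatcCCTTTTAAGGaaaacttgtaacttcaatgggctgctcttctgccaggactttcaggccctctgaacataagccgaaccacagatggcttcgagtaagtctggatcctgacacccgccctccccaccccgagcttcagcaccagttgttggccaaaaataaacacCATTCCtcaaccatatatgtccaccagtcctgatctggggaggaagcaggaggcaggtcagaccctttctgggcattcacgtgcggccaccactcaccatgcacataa
Acta2 (chr19:34255324-34255623, minus strand): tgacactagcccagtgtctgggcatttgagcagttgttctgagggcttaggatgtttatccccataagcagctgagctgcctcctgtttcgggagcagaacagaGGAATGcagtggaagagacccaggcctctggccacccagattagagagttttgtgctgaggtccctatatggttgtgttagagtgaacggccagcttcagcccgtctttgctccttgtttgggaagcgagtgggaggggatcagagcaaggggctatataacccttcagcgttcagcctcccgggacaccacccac
Capitals mark matches on either strand to the strict CArG box and to MCAT (GGAATG), the element that TEAD factors bind. The CArG box is the element that serum response factor binds in muscle genes, searched here as CC, only A or T, then GG. Forms with another letter inside, such as ccctatatgg in the Acta2 window, were not searched. Fbxl22 holds both marked elements, at -222 to -213 (CArG) and -58 to -53 (MCAT) from the start, and Acta2 holds MCAT at -146 to -141. MCAT matched 8 of the 15 windows of 14 contractile genes in the table (53.3%) and 12.7% of the 14983 windows of all genes tested. The CArG box matched 3 of the 15 windows (20%) and 1.38% of all windows. Of the 27 genes that rose, 20 had windows in the table, 29 windows in all. Of these windows 7, from 6 genes, held MCAT (24.1%) and 2 the CArG box (6.9%). The other motifs searched were an NF-kB site, in 3 of the 15 contractile windows and 5.25% of all, and an AP-1 site (TGANTCA), in 2 of the 15 and 5.52% of all. In the 29 windows of the genes that rose, each of these other motifs was in 3 (10.3%), so a share above that of all windows was not particular to MCAT and CArG. In Flna the NF-kB match overlapped the MCAT match. A match is a description of letters and no evidence that a factor bound there.

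Collagen genes were likewise higher after withdrawal without passing. Of 22 collagen genes measured, 20 had a positive log2 fold change and 12 did not overlap (all above, against 11.4% of all genes). At an unadjusted p under 0.05 there were 9, all higher (against 4.23% of all genes). Neither edgeR nor DESeq2 called any (0 of 22), while edgeR on the 6 libraries alone called 1, which was higher. Their median was 0.48. The list summed to 62611, 55894 and 55332 CPM after withdrawal and 39456, 49240 and 47199 CPM in continued DMSO. S13_705, the library with the flattest length trend, was the lowest. With S7_705 and S13_705 left out the median was 0.29 and 17 of 22 were positive, a move of more than 1.5 times, and it was 0.35 without S7_705 and 0.34 without S13_705.

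Col1a1, the main chain of type I collagen, had 14097, 12346 and 12481 CPM after withdrawal, against 5952, 9107 and 6986 CPM in continued DMSO (log2 fold change 0.82 ± 0.24, adjusted p = 0.246). Its partner chain Col1a2 had 14668, 13069 and 13437 CPM after withdrawal, against 8827, 10776 and 9595 CPM in continued DMSO (0.50 ± 0.16, adjusted p = 0.33), and Col6a3, a chain of the pericellular type VI collagen, averaged 262 ± 23.1 CPM after withdrawal and 121 ± 40.1 CPM in continued DMSO (1.11 ± 0.36, adjusted p = 0.354). Of 38 other matrix genes, 28 had a positive log2 fold change. Without overlap 15 were above and 4 below (against 11.4% and 10.8% of all genes). At an unadjusted p under 0.05, 8 were higher and 1 lower (against 4.23% and 2.18% of all genes). edgeR called none (0 of 38). DESeq2 called Lum, Eln and Sparc, the last not described further, and edgeR on the 6 libraries alone called 3, all higher. Eln, which encodes elastin, averaged 293 ± 135 CPM after withdrawal and 91.8 ± 29.8 CPM in continued DMSO (1.67 ± 0.46, adjusted p = 0.188). Lum, the collagen-binding proteoglycan lumican, averaged 47.5 ± 8.24 CPM after withdrawal and 19.1 ± 3.72 CPM in continued DMSO (1.32 ± 0.34, adjusted p = 0.14), and Postn, periostin, averaged 249 ± 39 CPM after withdrawal and 82.8 ± 34.1 CPM in continued DMSO (1.59 ± 0.46, adjusted p = 0.229). For DESeq2, Lum had an adjusted p of 0.0189 and Eln of 0.0327. The withdrawal libraries of Eln spread widely, highest in S9_716, yet did not overlap the continued ones.

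The secretory phenotype list moved in both directions, with Cxcl5 as its one called member among 38 (the background of falls was 0.0161%). Of these 38 genes 22 had a negative log2 fold change, 10 were below without overlap and 7 above (against 10.8% and 11.4% of all genes), and the median was -0.21. edgeR on the 6 libraries alone called 2 higher and 2 lower. At an unadjusted p under 0.05, 8 were lower and 3 higher (against 2.18% and 4.23% of all genes). The interleukin gene Il6 had 165, 178 and 105 CPM after withdrawal, against 319, 202 and 446 CPM in continued DMSO (log2 fold change -1.11 ± 0.62, adjusted p = 0.939). Its groups did not overlap, but its continued libraries differed widely among themselves, and its 95% interval ran from -2.40 to 0.18. The monocyte chemokine gene Ccl7 averaged 28.1 ± 9.0 CPM after withdrawal and 72.4 ± 29.4 CPM in continued DMSO (-1.37 ± 0.43, adjusted p = 0.308), and the neutrophil chemokine gene Cxcl1 averaged 9.53 ± 3.5 CPM after withdrawal and 27.5 ± 16 CPM in continued DMSO (-1.53 ± 0.52, adjusted p = 0.388). Plau, the urokinase that activates plasmin, pointed the other way and averaged 60.9 ± 9.1 CPM after withdrawal and 28.3 ± 1.91 CPM in continued DMSO (1.10 ± 0.34, adjusted p = 0.292). The median was -0.091 without S9_716 and -0.28 without S7_705.

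Immediate early genes, which growth factors and handling switch on within minutes, had the lowest median of the 31 lists (-0.34). Of 25 members 20 had a negative log2 fold change, 4 were below without overlap (against 10.8% of all genes) and none above. edgeR called none (0 of 25; 1 lower at an unadjusted p under 0.05), and DESeq2 called Ier3. Ier3 averaged 101 ± 13.1 CPM after withdrawal and 168 ± 32.4 CPM in continued DMSO (-0.74 ± 0.18, adjusted p = 0.116), and Zfp36, which marks cytokine messages for decay, averaged 266 ± 47.5 CPM after withdrawal and 409 ± 18.6 CPM in continued DMSO (-0.62 ± 0.38, adjusted p = 0.996). The summed level overlapped, at 4030, 5537 and 3651 CPM after withdrawal and 5459, 4969 and 6471 CPM in continued DMSO. The list's median was -0.15 without S15_716 and -0.50 without S8_715. Of 27 modulators of WNT and BMP signalling edgeR called none (1 higher and 4 lower at an unadjusted p under 0.05; DESeq2 called Sfrp2, and edgeR on the 6 libraries alone called 1, which was lower), and Sfrp2, a secreted WNT antagonist gene, averaged 19.7 ± 9.83 CPM after withdrawal and 49.2 ± 15.5 CPM in continued DMSO (-1.32 ± 0.34, adjusted p = 0.138; DESeq2 0.0244).

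**Figure D4:**
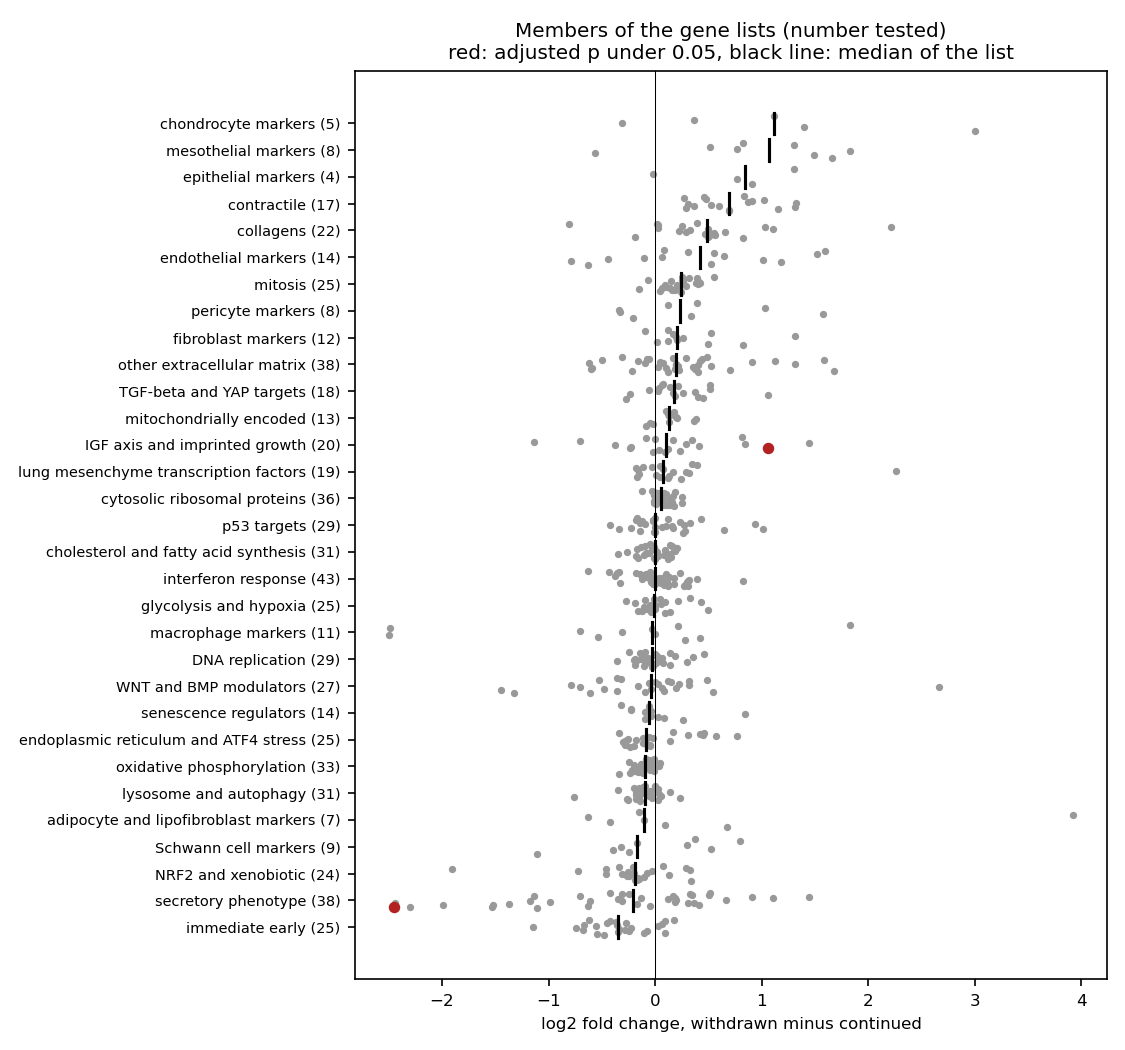
Log2 fold change (withdrawn minus continued DMSO) of each tested member of the 31 gene lists, 1 point per gene, with the list's median as a black line and called genes in red; 1 gene not reported here is left out of the points. Meg3 and Cxcl5 are the called members shown; every contractile gene lies above 0 and most immediate early genes lie below it.

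No listed gene of growth arrest or damage signalling was called by edgeR or DESeq2. Of 9 genes followed throughout, none passed edgeR's test (0 of 9; Col1a1 and Acta2 had an unadjusted p under 0.05) or DESeq2's. Cdkn1a, the cell cycle inhibitor p21 induced by p53, had 278, 312 and 272 CPM after withdrawal, against 257, 238 and 225 CPM in continued DMSO (log2 fold change 0.26 ± 0.18, adjusted p = 1, 95% interval -0.10 to 0.62). Cdkn2a, the p16 and p19 locus, averaged 38.8 ± 3.92 CPM after withdrawal and 41.6 ± 8.08 CPM in continued DMSO (-0.097 ± 0.31, interval -0.74 to 0.55). The p53 target Mdm2 averaged 79.3 ± 6.46 CPM after withdrawal and 79.8 ± 4.45 CPM in continued DMSO (-0.0097 ± 0.13, interval -0.27 to 0.25). Mki67, which marks cycling cells, averaged 17.8 ± 1.57 CPM after withdrawal and 15 ± 3.83 CPM in continued DMSO (0.25 ± 0.24, interval -0.24 to 0.73). Lmnb1, the lamin lost in many senescent cells, averaged 13.1 ± 0.862 CPM after withdrawal and 13.4 ± 0.582 CPM in continued DMSO (-0.035 ± 0.17, interval -0.39 to 0.32). The stress enzyme gene Hmox1 averaged 336 ± 34.5 CPM after withdrawal and 379.7 ± 14 CPM in continued DMSO (-0.17 ± 0.21, interval -0.60 to 0.25). The intervals of Cdkn1a, Cdkn2a, Mdm2, Mki67, Lmnb1 and Hmox1 all lay within a 2-fold change either way. Cells withdrawn at 35 d had a Mki67 level of 392 ± 77.2 CPM and cells at 15 d in DMSO of 27.6 ± 8.3 CPM.

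Of 25 mitosis genes 23 had a positive log2 fold change with a median of 0.25, and edgeR called none, with 0 at an unadjusted p under 0.05 and 0 for DESeq2. That median was 0.076 without S7_705 and S13_705 together, 0.13 without S15_716, and 0.15 without S7_705 or S13_705 alone. DNA replication genes had a median of -0.032 over 29 members, p53 targets of 0.0022 over 29, senescence regulators of -0.059 over 14 and interferon response genes of -0.0062 over 43, and edgeR and DESeq2 called none in any of the 4, while edgeR on the 6 libraries alone called 1 p53 target, which was higher. The interferon median turned with single libraries, to -0.32 without S7_705 (3 of 43 positive) and to 0.23 without S13_705 (34 of 43 positive). At an unadjusted p under 0.05 these 4 lists held 3 p53 targets (higher) and 3 senescence regulators (1 higher, 2 lower), against 4.23% higher and 2.18% lower of all genes. Of the 29 p53 targets 8 were above without overlap and 3 below (against 11.4% and 10.8% of all genes). The p53 targets with the lowest p were Psrc1, at 41.8 ± 2.46 CPM after withdrawal and 31 ± 3.0 CPM in continued DMSO (0.43 ± 0.13, adjusted p = 0.285), and the cytokine gene Gdf15, at 11.4 ± 2.27 CPM after withdrawal and 5.93 ± 0.735 CPM in continued DMSO (0.93 ± 0.30, adjusted p = 0.343).

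Most of the housekeeping and metabolic genes listed stayed close between the groups. All 33 genes of oxidative phosphorylation and all 36 cytosolic ribosomal protein genes had a 95% interval within a 2-fold change, with medians of -0.095 and 0.057. The ribosomal protein median was 0.29 without S13_705 (36 of 36 positive) and -0.061 without S14_715 (10 of 36). The oxidative phosphorylation median was -0.18 without S14_715, -0.00096 without S13_705 and 0.024 without S7_705 and S13_705 together. The interval of a single gene lay within a 2-fold change also for 30 of 31 genes of cholesterol and fatty acid synthesis, 24 of 25 of glycolysis and hypoxia and 30 of 31 of lysosome and autophagy. Those lists had medians of 0.00065, -0.014 and -0.096. The 13 mitochondrially encoded RNAs had a median of 0.13, NRF2 and xenobiotic genes of -0.19 over 24, and genes of endoplasmic reticulum and ATF4 stress of -0.083 over 25. The last list moved both ways, with 7 above without overlap and 5 below (against 11.4% and 10.8% of all genes). At an unadjusted p under 0.05, 3 of its genes were higher and 1 lower (against 4.23% and 2.18%). edgeR and DESeq2 called none of its genes, and edgeR on the 6 libraries alone called 1, which was higher. Of the NRF2 and xenobiotic genes 9 were below without overlap and 2 above. Meg3 was the one called gene of the 20 in the IGF and imprinted growth list, whose median was 0.11 and in which Igfbp2, an IGF binding protein, averaged 299 ± 147 CPM after withdrawal and 109 ± 17.5 CPM in continued DMSO (1.45 ± 0.53, adjusted p = 0.456). TGF-beta and YAP targets had a median of 0.18 (15 of 18 positive) and lung mesenchyme transcription factors of 0.071 (13 of 19), with no call by edgeR or DESeq2 in either, while edgeR on the 6 libraries alone called 1 TGF-beta and YAP target, which was higher. At an unadjusted p under 0.05 there were 1 and 2 genes higher in these 2 lists.

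Marker lists of other cells held no call by edgeR or DESeq2, while edgeR on the 6 libraries alone called 1 macrophage marker lower and 1 pericyte marker higher. Their summed levels were low beside the 28976 CPM or more of the fibroblast markers. Macrophage markers summed to 34.0 to 45.0 CPM after withdrawal and 42.6 to 60.2 CPM in continued DMSO, epithelial markers to 2.63 to 3.27 CPM after withdrawal and 1.43 to 1.90 CPM in continued DMSO. Mesothelial markers summed to 7.0 to 11.4 CPM after withdrawal and 4.86 to 6.45 CPM in continued DMSO. Pericyte markers, which include Pdgfrb of fibroblasts, summed to 766 to 881 CPM after withdrawal and 673 to 736 CPM in continued DMSO. The pericyte adhesion gene Mcam averaged 75.4 ± 10 CPM after withdrawal and 37 ± 9.94 CPM in continued DMSO (1.03 ± 0.35, adjusted p = 0.377), while Rgs5, which marks pericytes, had 29 counts in all after withdrawal and 31 in continued DMSO. Pericyte, mesothelial, epithelial and Schwann cell sums were higher in every withdrawal library than in any continued one and so moved with the contractile genes. Their part in that difference was not tested. Endothelial markers summed to 120 to 153 CPM after withdrawal and 137 to 144 CPM in continued DMSO. Most of that sum was Eng, with 12953 counts in all after withdrawal and 14138 in continued DMSO. Of the 14 endothelial markers 10 had a positive log2 fold change, with a median of 0.42. Without S7_705 these were 8 and 0.041. Schwann cell markers summed to 17.4 to 18.5 CPM after withdrawal and 13.9 to 14.9 CPM in continued DMSO. Adipocyte and lipofibroblast markers summed to 529 to 709 CPM after withdrawal and 526 to 783 CPM in continued DMSO, and chondrocyte markers to 4.06 to 5.85 CPM after withdrawal and 4.10 to 5.11 CPM in continued DMSO.

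The same schedule of removal was followed in cells given KU60019, where the inhibitor and not vehicle alone was taken away. The DMSO effect was set beside the effect of that removal. KU60019 withdrawn at 15 d and followed for 20 d against 35 d of KU60019 changed 7133 genes (38.2%; 3755 higher, 20.1%, and 3378 lower, 18.1%), in other libraries and in the same fit. Of the 27 genes that rose after DMSO withdrawal, 21 rose after KU60019 withdrawal as well (against 20.1% of all genes), Cgref1 fell, and Kcnh2, P2ry6, Cyb5r2, Wfdc1 and Trpv2 did not pass. Of the 3 that fell, Il17ra also fell (-0.48 ± 0.15 for KU60019) and Cxcl5 (-0.94 ± 0.44) and Mme (0.11 ± 0.26) did not pass. Ramp1 had a log2 fold change of 2.35 ± 0.43 in the KU60019 arm, 0.13 ± 0.58 from the DMSO effect, and Cav1 of 0.95 ± 0.24, a difference of -0.25 ± 0.34.

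The difference between the 2 removal effects was itself tested and passed for 2977 genes (15.9%; 1485 more positive with KU60019, 7.95%, and 1492 more negative, 7.99%). Among the 30 genes it passed for 9; these had been chosen by the DMSO effect, which is 1 of the 2 terms of the difference, so nothing is read from that share. Mme had 15.7 ± 3.62 CPM after KU60019 withdrawal and 14.5 ± 1.78 CPM in continued KU60019, and the KU60019 effect minus the DMSO effect was 1.64 ± 0.38 (adjusted p = 0.00675). Wfdc1 differed most among the 30, by -2.31 ± 0.35 (adjusted p = 0.00025), with -0.50 ± 0.24 in the KU60019 arm. Mrvi1 differed by 1.24 ± 0.25 (adjusted p = 0.00235), with 2.09 ± 0.18 in the KU60019 arm. Of the contractile genes, 12 of 17 rose and 2 (Synpo2 and Vcl) fell in the KU60019 arm, against 20.1% and 18.1% of all genes, with a median of 0.99, and the difference between arms passed for Tpm2 and Synpo2, both named after their values had been seen. Of the collagen genes 12 of 22 rose and Col12a1 fell in that arm, with a median of 0.74.

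**Figure D5:**
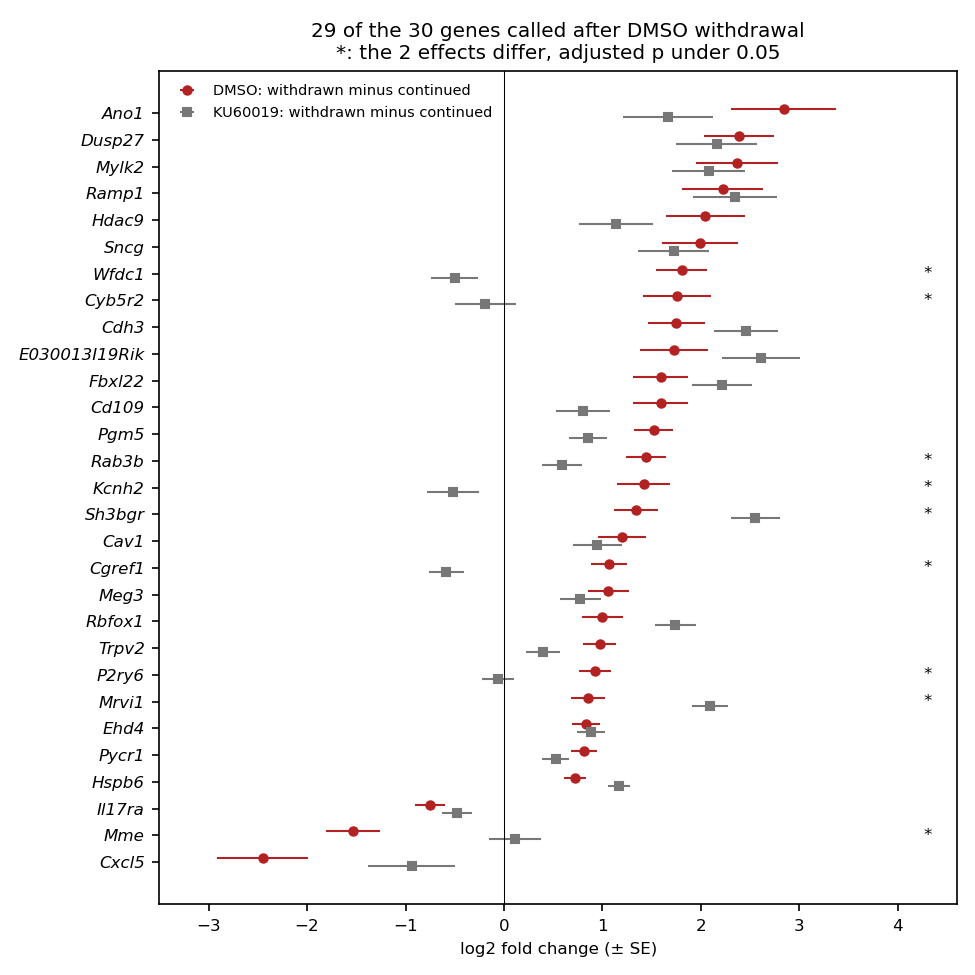
Log2 fold change ± SE of 29 of the 30 called genes for withdrawn minus continued DMSO (red circles) and withdrawn minus continued KU60019 (grey squares); an asterisk marks genes whose 2 effects differ at an adjusted p under 0.05. The effects for Ramp1 and Ehd4 nearly coincide, while Wfdc1, Cyb5r2, Kcnh2 and Cgref1 are above 0 for DMSO and below 0 for KU60019.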

How the data were processed

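RNA was prepared with a TruSeq kit, per the labels' protocols. The authors deposited raw read counts per gene and TPM values of the same libraries. The submitters' processing notes name featureCounts and mm10. Aligner, annotation release, versions and strand setting were not given in the sources used here. Through GENCODE M21 (GRCm38), 48058 of 48440 gene IDs received symbols.

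The deposited counts of all 27 libraries entered 1 model with a mean per group in edgeR 4.0.16 (R 4.3.3), with TMM scaling and a quasi-likelihood F-test, for the 18684 genes that filterByExpr kept at a minimum count of 10. Adjusted p-values are Benjamini-Hochberg over these genes and edgeR's unless another tool is named, and a gene was called below 0.05. Log2 fold changes carry ± SE (an approximation from the F statistic), levels are CPM as mean ± SD (n = 3 libraries a group), and positive values mean higher after withdrawal. edgeR and DESeq2 were tested on simulated counts with independent libraries, and nothing on the calls reported here is read from that.

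The comparison and the 31 lists were chosen with earlier results of these data known. Genes named by rule were the 8 largest rises and falls among called genes of at least 5 CPM with no overlap of libraries, a panel of 9, called list members, and 5 differences between arms each way. The other called genes, list examples (taken from the members with the lowest p) and the motifs were added after values were seen. Of the 30 called genes, 1 is counted but not reported by name or value here. No pair of replicates was as close as sampling noise (lowest chi-square per gene 14.0). Depths of 26704586 to 50859493 counts set the counting error.

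Alternatives were size factors by RLE or by library size, an unfiltered table, DESeq2 1.42.0, a fit of the compared libraries only, the replicate number as a block, a gene length trend removed, and limma 3.58.1 on log2(TPM + 1) or log2(TPM + 0.1) with a minimum of 1 TPM in 3 libraries or unfiltered. Each library was also left out in turn, where the group keeps 2 and the spread is pooled over all groups.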

Additional observations from a re-analysis of the deposited data

Results flagged for a closer look

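Each value here is the effect of KU60019 removal (withdrawn at 15 d minus 35 d of KU60019) minus that of DMSO removal on the log2 scale, with edgeR's adjusted p for that difference, and is listed because the difference passed. A positive value means a higher effect in the KU60019 arm. Every arm has 3 libraries a group.

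Among genes called after DMSO withdrawal, the effect was more positive with KU60019 for Mme (1.64, adjusted p = 0.00675), Mrvi1 (1.24, adjusted p = 0.00235) and Sh3bgr (1.21, adjusted p = 0.0179). It was more negative for Wfdc1 (-2.31, adjusted p = 0.00025), Cyb5r2 (-1.95, adjusted p = 0.00812), Kcnh2 (-1.94, adjusted p = 0.00202), Cgref1 (-1.65, adjusted p = 0.000296), P2ry6 (-0.99, adjusted p = 0.00752) and Rab3b (-0.85, adjusted p = 0.047).

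In the panel and lists, the effect was more positive for the cycle genes Mki67 (1.05, adjusted p = 0.0377) and Cdkn2a (1.29, adjusted p = 0.0498), the lamin gene Lmnb1 (0.96, adjusted p = 0.0135), the collagen gene Col1a2 (0.92, adjusted p = 0.0104) and the tropomyosin gene Tpm2 (1.51, adjusted p = 0.0113). It was more negative for Hmox1 (-1.24, adjusted p = 0.00808), Lum (-1.80, adjusted p = 0.0152), Gdf15 (-1.66, adjusted p = 0.0131), Psrc1 (-0.90, adjusted p = 0.00339) and the actin-associated gene Synpo2 (-1.31, adjusted p = 0.00215).

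The largest positive differences over all genes were those of Ear2 (9.76, adjusted p = 3.85e-05), an eosinophil ribonuclease gene with near-identical copies and so uncertain, of the growth factor gene Ptn (5.99, adjusted p = 3.85e-05), Tril (5.49, adjusted p = 0.00901), Clec3b (5.20, adjusted p = 0.000168) and the adrenergic receptor gene Adra2a (4.72, adjusted p = 0.0179). The largest negative ones were those of Stmn2 (-4.48, adjusted p = 0.0193), the chemokine gene Cxcl14 (-4.46, adjusted p = 0.000323), the retinoic acid binding protein gene Crabp2 (-4.29, adjusted p = 3.85e-05), the acetylcholinesterase gene Ache (-4.23, adjusted p = 8.29e-06) and Tmem59l (-4.20, adjusted p = 9.01e-06). In the DMSO arm none of these 10 passed, and the effects lay between -1.72 (Ear2) and 2.12 (Stmn2).

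With each of the 12 libraries left out in turn, 22 of these 29 differences passed every time and 7 did not. Rab3b passed only without S12_716 (adjusted p = 0.0309, otherwise up to 0.107), Cdkn2a only without S10_705 (0.0400, otherwise up to 0.131), and Mki67 only without S10_705 (0.0246), S15_716 (0.0317) or S17_715 (0.0255), otherwise up to 0.103. Sh3bgr did not pass without S13_705 (0.0611) or S16_705 (0.0671), and Tril did not without S11_715 (0.0763). Adra2a did not without S11_715 (0.117), S15_716 (0.0836) or S16_705 (0.0516), and Stmn2 did not without S9_716 (0.0928). On the TPM scale, Tril came to 0.86 (adjusted p = 0.269) in limma on log2(TPM + 1) with no filter, and Adra2a to 2.02 (adjusted p = 0.0775 with the filter and 0.140 without it).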

How the results depend on the processing

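The number of genes called between withdrawn and continued DMSO (30; 27 higher, 3 lower) was 27 with RLE size factors, 21 with library size alone (17 higher), 30 with no filter on low counts (29 higher, 1 lower) and 39 with the gene length trend removed. DESeq2 called 162 (120 higher, 42 lower) and edgeR on the 6 libraries alone 252 (181 higher, 71 lower). The share of calls that were higher was 90% in the reported fit, 74% with DESeq2 and 72% with the 6 libraries alone. limma on log2(TPM + 1) called 30 (21 higher, 9 lower; 12 of them among the reported 30), 28 with no filter (22 higher, 6 lower; 11 among the 30), and on log2(TPM + 0.1) 10 (10 higher, 0 lower; 9 among the 30, with 775 at an unadjusted p under 0.05). With 1 library left out the count was 0 to 24 (0 to 23 higher, 0 to 1 lower), with 24 without S7_705, 11 without S13_705, 9 without S8_715, 7 without S9_716, 5 without S15_716 and 0 without S14_715. Without S7_705 and S13_705 together it was 8 (7 higher, 1 lower). The causes of these moves were not tested, beyond the smaller number of libraries in the last fits.

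With the replicate number as a block 51 genes were called (40 higher, 11 lower), with all 30 among them. Deviations of same-numbered libraries correlated at 0.0747 for S7_705 and S13_705, 0.243 for S8_715 and S14_715 and 0.207 for S9_716 and S15_716, which missed the rule for pairing in 1 pair. Among these withdrawn and continued DMSO libraries, each correlated best with its own number, a hint from the data and not from the design. Same-numbered pairs with a KU60019 library had correlations of both signs, from -0.283 (S13_705 and S16_705) to 0.357 (S10_705 and S16_705). A shared origin of same-numbered libraries was not tested.

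The difference between the KU60019 and DMSO effects (2977 genes; 1485 higher, 1492 lower) came to 1825 with no filter on low counts (780 higher). limma on log2(TPM + 1) gave 1656 (779 higher, 877 lower), 1377 with no filter (543 higher, 834 lower), and on log2(TPM + 0.1) 1632 (777 higher, 855 lower). With 1 of the 12 libraries left out the count was 1583 to 4970 (740 to 2495 higher, 843 to 2475 lower). It moved by more than 1.5 times without S7_705 (1864), S8_715 (1699), S10_705 (4970), S11_715 (1782), S13_705 (1583), S16_705 (1646) and S17_715 (1983). Without S7_705 and S13_705 it was 972 (419 higher, 553 lower).

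Sign changes were confined, among the genes named, to 3 that had not passed in any fit of the DMSO comparison. Cdkn2a ran over single libraries left out to 0.064 without S13_705 and to -0.21 without S14_715, and was 0.041 without S7_705 and S13_705. Mdm2 was 0.0026 with no filter, 0.044 without S9_716, 0.015 without S15_716 and -0.079 without S8_715. Lmnb1 was 0.012 without S8_715 and -0.076 without S15_716. Depth and 3 libraries a group limit the precision, with a standard error of 0.620 at the 90th percentile of genes.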
